A study of Homo sapiens with 12 samples.

Results

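The nuclear factor I (NFI) family consists of the genes *NFIA*, *NFIB*, *NFIC* and *NFIX*. These 4 genes were taken by symbol from the 26210 genes of the deposited expression table and followed through all 12 RNA-seq libraries. The family was selected on the FPKM values of *NFIX*, which was known to differ strongly between these cell lines, so differences of *NFIX* between lines are given below as a description, without a test. The comparison of PMA-treated with untreated Reh cells was not the one used for the selection and was tested, although its untreated values of *NFIX* are among those that led to the selection. The differences of the 3 paralogues *NFIA*, *NFIB* and *NFIC* were also tested.

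NFI proteins bind DNA as homodimers or heterodimers through a conserved amino-terminal domain, at a palindrome of the form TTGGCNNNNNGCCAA or, less tightly, at one arm of it. Their carboxy-terminal part differs between the family members and activates or represses transcription, depending on the gene and the cell. They are best known for roles in the development of the brain, lung, muscle and skeleton, and in blood formation *NFIA* and *NFIX* are known to act in progenitor cells and in the choice between lineages.

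The study asked how long terminal repeats (LTRs), the promoter elements left by retroviruses in the genome, come to drive genes in classical Hodgkin lymphoma (cHL), and it examined NFIX for the LTR that drives *TNFRSF11A*. Total RNA was sequenced from 6 groups of 2 libraries each. KM-H2, L1236 and L428 are cHL lines, derived from Hodgkin/Reed-Sternberg (HRS) cells. The control B-cell lines were Reh, from a B-precursor leukaemia, and Namalwa, from a Burkitt's lymphoma, both labelled as non-Hodgkin lines without treatment. The last group was Reh given the phorbol ester PMA, an activator of protein kinase C, at 2 ng/ml, for a time that the labels of these libraries do not give. Each line stands for 1 tumour. The labels do not say whether the 2 libraries of a group came from separate cultures, so p-values measure only the spread between these libraries, which may be technical. The cHL lines were grown in another medium than the control lines, and medium and tumour type cannot be told apart. The 2 libraries of a group are called library 0 and library 1, after the endings of the column names.

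The labelled identities were checked against marker genes. *TNFRSF8*, which encodes the HRS marker CD30, lay between 19.09 and 63.69 FPKM (fragment count scaled by transcript length and library depth) in the 6 cHL libraries and at most at 0.5054 FPKM in all others. *CD79B*, a part of the B-cell receptor, was at most at 0.5921 FPKM in the cHL libraries and reached 38.98 FPKM or more in each of the other 6 libraries. Not every marker separated the lines in this way. The B-lineage gene *PAX5* was at 33.78 and 19.84 FPKM in L1236, and *MS4A1* was only at 0.1614 and 0.2291 FPKM in Reh. The HRS marker *CCL22* was listed at 0 in both KM-H2 libraries. Among the precursor B-cell markers, *DNTT* was high in Reh but *VPREB1* was listed at 0 there. KM-H2 contained 13.53 and 22.45 FPKM of the T-cell gene *CD3D* with little *CD3E* (0.1973 and 0 FPKM). The myeloid gene *CD14* (5.787 and 4.556 FPKM) and the fibroblast gene *COL1A1* (1.056 and 3.675 FPKM) also reached 1 FPKM in both libraries of KM-H2 and in no other library. By contrast the myeloid gene *MPO* was at 24.79 and 32.04 FPKM in Reh and listed at 0 in KM-H2, and the fibroblast gene *PDGFRB* was at 3.071 and 2.677 FPKM in Reh, 41.5 and 32.35 FPKM in PMA-treated Reh and 0 in KM-H2. Markers are given as levels only, since most of them reached 1 FPKM on one side of the comparison alone. The table holds no counts. From the smallest values, the libraries were estimated to hold between 3620000 and 20750000 fragments, and the shallowest was library 0 of KM-H2.

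The 4 genes lie on 3 chromosomes. In GRCh37 coordinates with the GENCODE annotation, *NFIA* occupies chr1:61330931-61928460 on the plus strand, *NFIB* chr9:14081842-14398982 on the minus strand, *NFIC* chr19:3314401-3469215 on the plus strand and *NFIX* chr19:13106289-13209610 on the plus strand. All are protein coding, with 11 exons in the canonical transcript. Exon 2, which encodes most of the DNA-binding domain, was 532 bases long in each gene. Over this exon *NFIC* and *NFIX* were identical at 86.5% of the bases, and every other pair at 73.9% to 77.3%. The following 60 bases of exon 2, bases 53 to 112 of the exon, are shown as a stretch that the 4 paralogues largely share. They are coding sequence, read from the reference genome on the strand of the gene from 5′ to 3′, and capitals mark the 48 bases that are the same in all 4 genes.
NFIA, chr1:61553873-61553932, plus strand: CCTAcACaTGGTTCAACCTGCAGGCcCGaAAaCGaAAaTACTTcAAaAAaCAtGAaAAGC
NFIB, chr9:14307408-14307467, minus strand: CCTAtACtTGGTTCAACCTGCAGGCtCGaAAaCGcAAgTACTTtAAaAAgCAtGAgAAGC
NFIC, chr19:3381762-3381821, plus strand: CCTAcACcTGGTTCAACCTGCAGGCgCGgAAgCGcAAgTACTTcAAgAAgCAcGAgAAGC
NFIX, chr19:13135887-13135946, plus strand: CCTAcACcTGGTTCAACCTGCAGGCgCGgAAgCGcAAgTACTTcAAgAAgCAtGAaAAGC

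Little sequence was shared beyond such stretches. Of all runs of 25 bases in the canonical transcript, 1.099% of those of *NFIC* and 1.468% of those of *NFIX* also occurred in another member, while none of *NFIA* or *NFIB* did. At 75 bases no run was shared by any of them. Reads that could be placed in both *NFIC* and *NFIX* therefore come from a small part of these transcripts.

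*NFIX* reached the highest FPKM level in the family. Its level was 16.08 and 8.511 FPKM in L1236 (library 0 and library 1), 7.311 and 7.027 FPKM in Reh, and 1.893 and 2.21 FPKM in PMA-treated Reh. In KM-H2 it was 1.426 and 0.7478 FPKM, in L428 0.3785 and 0.1658 FPKM, and in Namalwa 0.03782 and 0.04295 FPKM. The order of the levels was thus L1236, Reh, PMA-treated Reh, KM-H2, L428 and Namalwa, and no 2 neighbours in this order overlapped. The mean level in L1236, 12.29 ± 5.35 FPKM (SD, n = 2), was 11.31 times that in KM-H2 and 45.17 times that in L428, but only 1.715 times that in Reh, so one cHL line and one control line held the 2 highest positions. The values in Namalwa stand for about 2.1 fragments per library, which is at the limit of detection.

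*NFIB*, a factor best known from lung and brain development, separated the cHL lines on one side from all Reh and Namalwa libraries on the other. Its level was 4.917 and 4.565 FPKM in L1236, 5.207 and 1.926 FPKM in KM-H2, and 1.266 and 1.094 FPKM in L428. In Namalwa it was 0.08562 and 0.1388 FPKM, in PMA-treated Reh 0.02601 and 0.02458 FPKM, and it was listed at 0 in both Reh libraries. The Namalwa values stand for only about 6.9 and 9.8 fragments. L1236 and KM-H2 overlapped, L428 lay below them, and the lowest cHL library (1.094 FPKM) was above the highest library of the control lines (0.1388 FPKM).

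*NFIA*, the member with a known part in the choice between the erythroid and granulocytic lineages, was highest in a control line and in a cHL line. Its level was 6.399 and 3.541 FPKM in Namalwa, 5.178 and 3.769 FPKM in L428, and 2.072 and 1.167 FPKM in KM-H2. L1236 had 0.4795 and 0.5628 FPKM, Reh 0.4647 and 0.3609 FPKM, and PMA-treated Reh 0.01428 and 0.05398 FPKM. Namalwa and L428 overlapped, and no other neighbours in the order did. The antisense gene *NFIA-AS1*, which lies within *NFIA*, was listed at 0 in all 12 libraries, and *NFIA-AS2* did not exceed 0.1471 FPKM.

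*NFIC*, a broadly expressed member known for its part in tooth root formation, was found in every group but Namalwa at a mean level between 1.993 and 7.865 FPKM, with a wide spread between the 2 libraries of several groups. Its level was 12.39 and 3.34 FPKM in KM-H2, 5.759 and 1.899 FPKM in L1236, and 3.998 and 1.807 FPKM in L428. Reh had 5.301 and 2.963 FPKM, PMA-treated Reh 2.06 and 1.927 FPKM, and Namalwa 0.1291 and 0.01511 FPKM. From KM-H2 down to PMA-treated Reh every group overlapped its neighbour, while Namalwa, with about 9.7 and 1.0 fragments, lay apart below them.

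**Figure D1:**
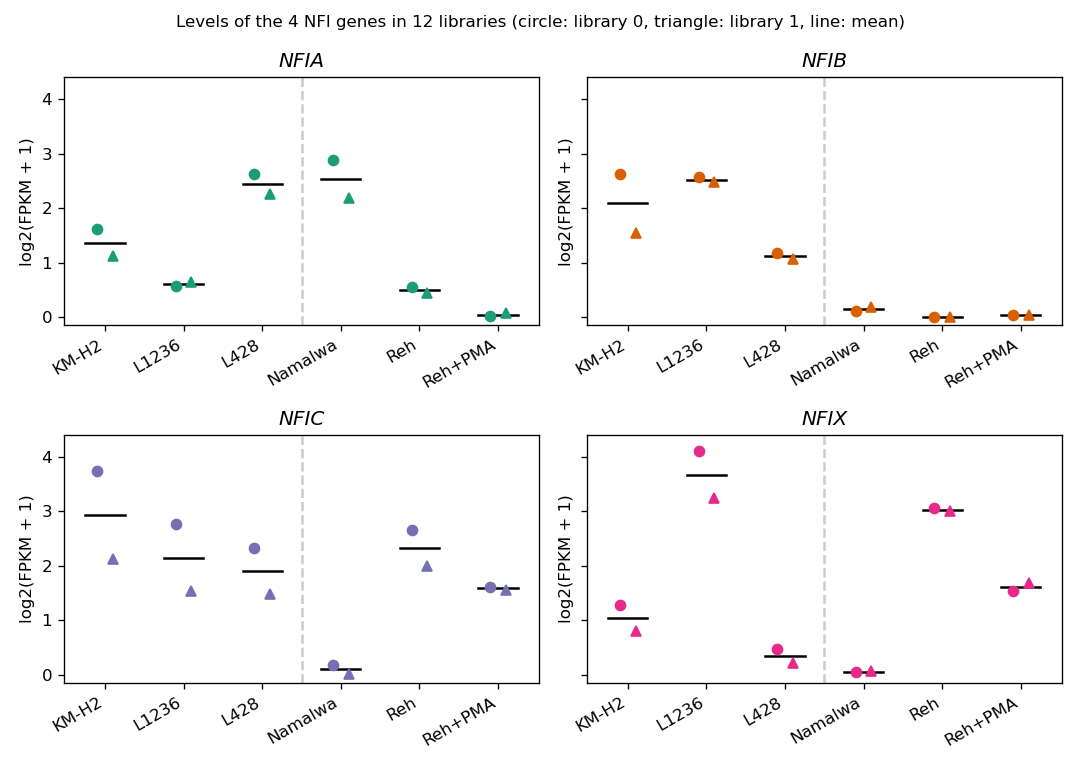
Level of each NFI gene, as log2(FPKM + 1), in the 6 groups, with the cHL lines left of the dashed line. Circles are library 0, triangles library 1, and horizontal lines the group mean of both on this scale. *NFIB* is above 1 FPKM in all 6 cHL libraries and near 0 in the other 6, whereas *NFIX* is high in L1236 and Reh, *NFIA* in Namalwa and L428, and *NFIC* in every group but Namalwa.

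Because FPKM values are per length, the members could be set against each other within a library. *NFIX* made up 59.03% and 54.77% of the summed NFI level in L1236 and 55.91% and 67.89% in Reh. The same leading gene was accompanied by different paralogues in these lines, as *NFIB* contributed 18.06% and 29.38% in L1236 and 0% in Reh. In KM-H2 *NFIC* led with 58.73% and 46.52%, followed by *NFIB* with 24.68% and 26.82%. In L428 *NFIA* led with 47.85% and 55.13%, followed by *NFIC* with 36.95% and 26.44%. Namalwa was close to a single-member line, with *NFIA* at 96.2% and 94.73%. In PMA-treated Reh, *NFIC* (51.59% and 45.71%) and *NFIX* (47.4% and 52.43%) had like shares, and which of them led differed between the libraries. The 3 cHL lines thus each had another leading member, and both libraries of each line gave the same one. The summed level ran from 3.738 FPKM in a Namalwa library to 27.23 FPKM in a L1236 library.

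**Figure D2:**
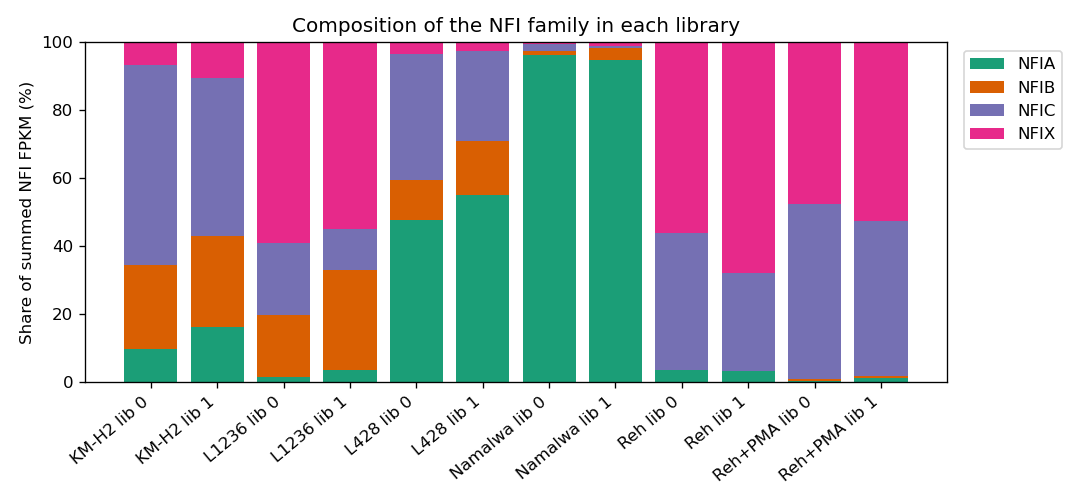
Share of each NFI gene in the summed FPKM of the family, in percent, for each of the 12 libraries. *NFIX* (pink) takes more than 50% of the bar in the L1236 and Reh libraries, *NFIC* (violet) is the largest part in KM-H2, and *NFIA* (green) takes 94.73% or more in Namalwa.

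The first comparison asked whether the NFI genes differ between the 3 cHL lines and the 2 untreated control lines. *NFIB* was higher in the cHL lines, *NFIC* was higher by a smaller and less stable margin, and *NFIA* did not pass the test. All differences are on the scale log2(FPKM + 1), which understates the change of genes with low levels, and were tested with limma across 14679 genes at an adjusted p of 0.05. Since RNA was taken from whole cultures, fewer expressing cells and less RNA per cell cannot be told apart.

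The pooled ranges of *NFIB* did not overlap, with 1.094 to 5.207 FPKM (median 3.245, 6 libraries) in the cHL lines and 0 to 0.1388 FPKM (median 0.04281, 4 libraries) in the control lines. The difference in log2(FPKM + 1) was 1.84 (SE 0.1855; limma, adjusted p = 3.4493e-05). *NFIB* passed the filter on low values, at least 1 FPKM in 2 libraries, only through the cHL libraries, so the filter fixed its direction. Without any filter the adjusted p was 0.00012319, and with a pseudocount of 0.1 the difference was 4.23. In a comparison of line means, which treats a line as the unit, the exact two-sided permutation test gave p = 0.2 for *NFIB*, the smallest value that 3 lines against 2 allow.

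*NFIC* ranged from 1.807 to 12.39 FPKM in the cHL lines and from 0.01511 to 5.301 FPKM in the control lines, so the ranges overlapped. Its difference was 1.12 (SE 0.3643; limma, adjusted p = 0.026891), and over line means the exact permutation test gave p = 0.6. The call, more than the size of the difference, depended on single libraries. It was lost without library 0 of KM-H2, L1236 or L428 (adjusted p = 0.051132, 0.065325 and 0.062651), without either library of Namalwa (0.061882 and 0.080944) and without library 1 of Reh (0.10468), with differences between 0.85 and 1.16. With a pseudocount of 0.1 the difference was 2.29. Each of the 3 cHL lines overlapped Reh in *NFIC*, and each lay above Namalwa.

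For *NFIA* the difference was -0.05 (95% interval -0.43 to 0.34; limma, adjusted p = 0.83762; exact permutation over line means p = 1). Its range in the cHL lines, 0.4795 to 5.178 FPKM, lay inside that in the control lines, 0.3609 to 6.399 FPKM. *NFIX* differed by 0.14, given as a description. Of the 3 tested paralogues 2 were thus called, beside 55.4% of all genes tested in this comparison, so a call of this kind was common among the genes of these lines.

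Each cHL line was then set against the same control lines. These 3 comparisons share their control libraries and are given side by side. In all of them *NFIB* passed the filter on low values only through the cHL libraries, so the filter fixed its direction. *NFIB* was higher in each, by 2.01 in KM-H2 (SE 0.2489; adjusted p = 0.00015796), by 2.44 in L1236 (adjusted p = 4.6752e-05) and by 1.05 in L428 (adjusted p = 0.007501; limma, log2(FPKM + 1) differences). No alternative setting and no library left out took *NFIB* across the threshold in these comparisons.

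*NFIA* moved in opposite directions in L1236 and L428. It was lower in L1236 than in the mean of the control lines (-0.91, SE 0.2276; limma, adjusted p = 0.0097595) and higher in L428 (0.92; adjusted p = 0.0089246), while KM-H2 differed by -0.15 (adjusted p = 0.6279). The control mean combines Namalwa and Reh, which themselves differ, so the levels matter here: both L1236 libraries were above both Reh libraries, and L428 overlapped Namalwa. The call in L1236 was lost without library 0 or library 1 of L1236 (differences -0.87 and -0.95, adjusted p = 0.062278 and 0.050837), and that in L428 without library 0 of L428 (0.74, adjusted p = 0.071542).

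*NFIC* was higher in KM-H2 (1.72, SE 0.4887; limma, adjusted p = 0.017265) and differed by 0.94 in L1236 (adjusted p = 0.15019) and by 0.70 in L428 (adjusted p = 0.27693). Without library 0 or library 1 of the line these values were 0.33 and 1.55 in L1236 and 0.28 and 1.11 in L428, and with a pseudocount of 0.1 both were called (2.07 and 1.78). In KM-H2 the difference shrank to 0.91 without library 0 of that line (adjusted p = 0.18987), and the call was also lost without library 1 of Reh (0.052794). *NFIX*, as a description, differed by -0.50 in KM-H2, 2.13 in L1236 and -1.20 in L428. In each of these comparisons 2 of the 3 tested paralogues were called in one direction or the other, beside 47.1% of all genes for KM-H2, 45.4% for L1236 and 46.9% for L428. Each of these counts includes *NFIB*, whose direction the filter fixed.

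**Figure D3:**
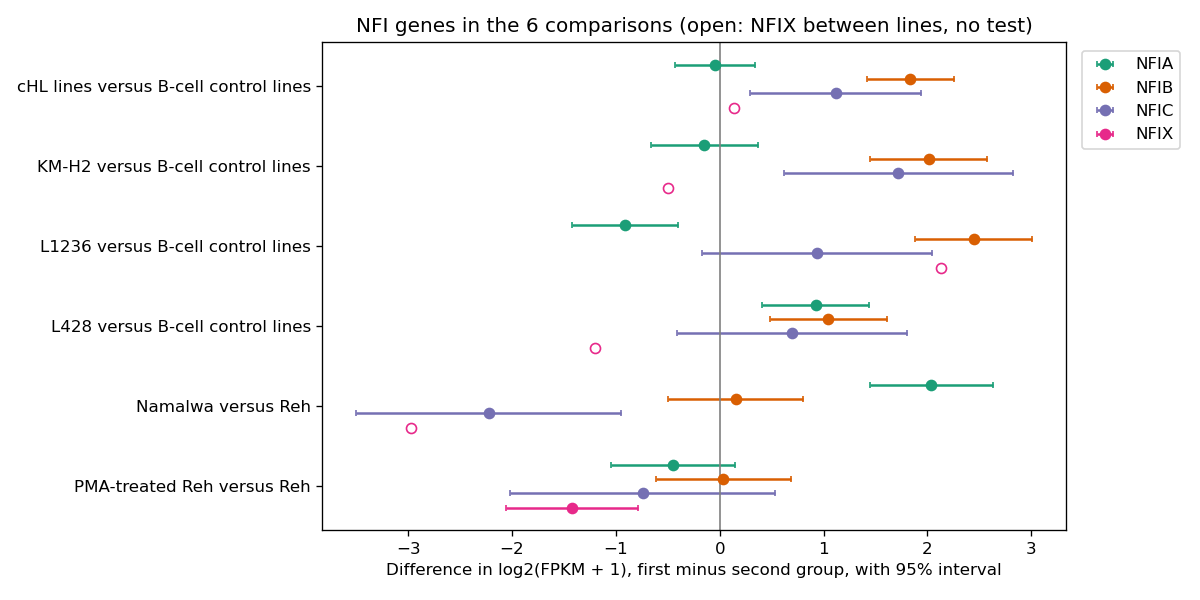
Differences in log2(FPKM + 1) of the NFI genes in the 6 comparisons, first group minus second. Filled points are fitted differences with their 95% intervals, and open points are *NFIX* between lines, for which no test was made. The intervals of *NFIB* lie above 0 in all 4 comparisons of cHL with control lines, those of *NFIA* lie on opposite sides of 0 in L1236 and L428, and the interval of *NFIX* lies below 0 after PMA.

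The treatment of Reh with PMA asked how the family responds to an inflammatory stimulus in a control line. *NFIX* was lower after PMA. Its level fell from 7.311 and 7.027 FPKM in untreated Reh to 1.893 and 2.21 FPKM, and the groups did not overlap. The mean of the untreated libraries, 7.169 ± 0.2002 FPKM (SD, n = 2), was 3.494 times that of the treated ones, 2.052 ± 0.2245 FPKM. On the log2(FPKM + 1) scale *NFIX* fell by 1.42 (SE 0.2812, 95% interval -2.06 to -0.79; limma, adjusted p = 0.0054498), and the call held under every alternative setting and without any single library (adjusted p at most 0.043401). These values rest on about 411.0 and 382.5 fragments before and 168.6 and 206.5 fragments after treatment. The untreated values are among those that led to the selection of the family, so the p-value of *NFIX* is not independent of that selection.

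The other members did not pass the test after PMA. *NFIC* differed by -0.74 (95% interval -2.02 to 0.54; limma, adjusted p = 0.36497), with both treated libraries, 2.06 and 1.927 FPKM, below both untreated ones. *NFIA* differed by -0.45 (95% interval -1.04 to 0.14; adjusted p = 0.23056), again with no overlap between the groups, and with about 1.9 and 7.7 fragments behind its treated values. With a pseudocount of 0.1 in place of 1, which gives more weight to low levels, *NFIA* differed by -1.94 and was called (adjusted p = 0.0088091). *NFIB* stayed at or near 0 throughout (difference 0.04, 95% interval -0.61 to 0.69; adjusted p = 0.9996). One of the 4 members was thus called in the main fit, beside 31.8% of all genes tested. When only the 4 Reh libraries were fitted, *NFIA* and *NFIB* were called as well. The median difference over all genes was -0.03.

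Reh and Namalwa, the 2 control lines, differed in more of the family than they shared. *NFIA* was higher in Namalwa by 2.04 (SE 0.2628; limma, adjusted p = 0.00038315), or 12.04 times by mean FPKM. *NFIC* was lower in Namalwa (-2.22 on the same log2 scale, SE 0.5643; adjusted p = 0.018196), although this call was lost without library 0 or library 1 of Namalwa (adjusted p = 0.072718 and 0.08977) or without library 0 of Reh (0.1305). For *NFIB* the difference was 0.15 (95% interval -0.50 to 0.80; adjusted p = 0.81757). For *NFIX* the difference was -2.97, as a description. Of the 3 tested paralogues 2 were called, beside 25.1% of all genes.

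The 2 libraries of a line differed in several members. In each of the 3 cHL lines *NFIC* and *NFIX* were higher in library 0 than in library 1. The ratio was 3.709, 3.032 and 2.212 for *NFIC* in KM-H2, L1236 and L428, and 1.907, 1.889 and 2.283 for *NFIX*. In the same lines the ratio was 1.776, 0.8521 and 1.374 for *NFIA* and 2.704, 1.077 and 1.157 for *NFIB*, so *NFIB* differed more than *NFIX* in KM-H2. In Reh it was 1.789 for *NFIC*, 1.287 for *NFIA* and 1.04 for *NFIX*. In Namalwa it was 1.807 for *NFIA* and 8.544 for *NFIC*, the latter from about 9.7 and 1.0 fragments, and in PMA-treated Reh 1.069 for *NFIC*, which was thus higher in library 0 in all 6 groups. GC content was taken as the median over the annotated transcripts of a gene. By this value *NFIC* (62.6%) and *NFIX* (59.5%) belong to the highest of 5 equal groups of tested genes (58.5% to 76%). *NFIA* (45.2%) and *NFIB* (44.1%) belong to the next-lowest group (42.2% to 46.7%). Over all genes, the median difference in log2(FPKM + 1) between library 0 and library 1 of L428 went from -0.20 in the lowest to 0.13 in the highest GC group, and that of L1236 from -0.13 to 0.11. KM-H2 had medians of 0 and -0.05 in these groups, and its *NFIC* ratio was the highest of the 3 cHL lines. The part of GC content in the spread of *NFIC* and *NFIX* was not tested. After the medians within GC bins had been removed, the difference of *NFIC* between cHL and control lines was 1.17 (limma, adjusted p = 0.015229). That step shifts whole bins and does not test the spread of a single gene.

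**Figure D4:**
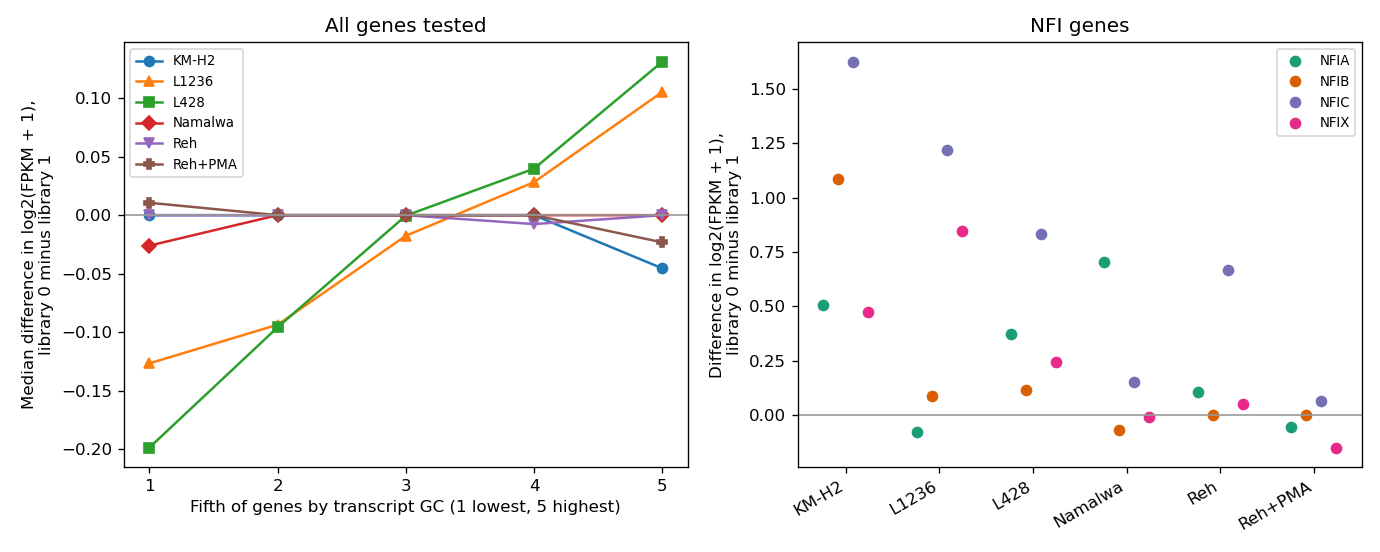
Differences between library 0 and library 1 of the same group in log2(FPKM + 1). Left, the median over all genes tested in each of 5 groups by transcript GC content, which climbs from -0.20 to 0.13 in L428 and from -0.13 to 0.11 in L1236 and stays within 0.05 of 0 in the other groups. Right, the NFI genes, of which *NFIC* has the largest difference on this scale in KM-H2, L1236, L428 and Reh, and *NFIA* in Namalwa.

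*TNFRSF11A*, which encodes the receptor RANK, is the gene for which the study examined NFIX. The study reported an NFI binding site in its LTR. It also reported that siRNA against *NFIX* in L1236 significantly lowered both *TNFRSF11A* and the transcript from the LTR. The FPKM values here count the whole gene and not that transcript alone. They describe levels across lines and do not test the knockdown result. Its level was 61.54 and 51.84 FPKM in L1236, 9.755 and 14.47 FPKM in L428, and 4.259 and 4.775 FPKM in KM-H2. It was listed at 0 in both Namalwa libraries and was 0.5326 and 0.5888 FPKM in Reh and 0.7603 and 0.4836 FPKM in PMA-treated Reh. L1236 was thus the highest line for both *NFIX* and *TNFRSF11A*, but the remaining lines did not keep one order. Reh had the second-highest level of *NFIX* with little *TNFRSF11A*, and L428 had more *TNFRSF11A* and less *NFIX* than KM-H2.

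**Figure D5:**
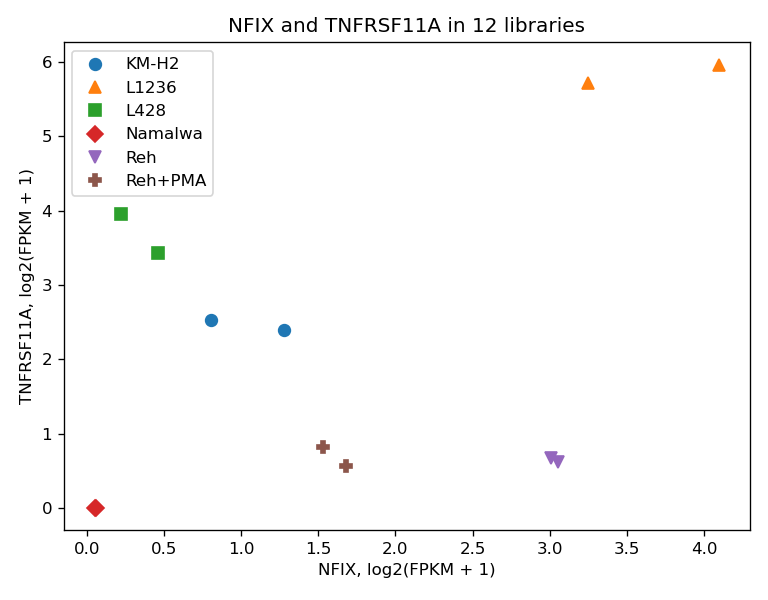
Level of *TNFRSF11A* against that of *NFIX* in the 12 libraries, both as log2(FPKM + 1), with one symbol per group. The L1236 libraries are highest on both axes, the Reh libraries are high in *NFIX* and below 1 in *TNFRSF11A*, and the L428 libraries are low in *NFIX* and between 3 and 4 in *TNFRSF11A*.

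In Reh *TNFRSF11A* was below 1 FPKM with and without PMA, which leaves little room for a fall beside that of *NFIX*. *CSF1R*, the gene of the macrophage growth factor receptor, rose by 3.33 after PMA (limma, adjusted p = 1.0243e-05). The LTR-linked genes *TNFRSF11A*, *WNT5A*, *CSF1R* and *NLRP1* were all 4 higher in the cHL lines than in the control lines, with a median difference of 2.59 against 0.02 over all genes, of which 29.6% were called higher. In L1236 alone, *CSF1R* differed by 0.19 and was not called (limma, adjusted p = 0.41227). The study chose the 4 genes on these lines, so their count is not independent evidence of their direction, and *TNFRSF11A* and *WNT5A* passed the filter on low values only through the cHL libraries.

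Genes known to depend on NFI factors in other tissues did not move one way. Of 17 such genes 8 could be tested, and in the cHL lines 2 were higher and 2 lower than in the control lines, beside 55.4% of all genes called. *ENO3*, a muscle enolase, and *SOX9*, a regulator of cartilage and glial development, were higher by 3.13 and 1.17, and *NFATC4* and the cell cycle inhibitor gene *CDKN1A* were lower (-3.23 and -1.36). These pooled values did not hold in every line: in KM-H2 *CDKN1A* differed by 0.42 (limma, adjusted p = 0.27609) and *SOX9* by 0.11 (adjusted p = 0.52782). *SOX9* passed the filter on low values only through L1236 and L428 and was listed at 0 in both control lines, and *NFATC4* did not reach 1 FPKM in any cHL library, so the filter fixed the direction of both. The glial gene *GFAP* was among those not tested, with at most 0.2837 FPKM. After PMA 3 of the 8 were higher, namely *APCDD1* (3.13), *CDKN1A* (2.54) and *EZH2* (1.62), and *NFATC4* (-2.02) and *BBX* (-0.75) were lower, beside 31.8% of all genes called. *APCDD1* passed the filter only through the 2 PMA-treated libraries (6.068 and 18.84 FPKM), so its presence among the tested genes depends on that increase. The median difference of the 8 genes was -0.06 in the cHL lines and 0.37 after PMA, against 0.02 and -0.03 over all genes. The call of *EZH2* was lost without a filter on low values and without either Reh or either PMA-treated library, with differences from 1.34 to 1.90.

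Among 10 factors known to bind or act with NFI proteins, 8 were tested, and 2 were called in the cHL lines, beside 55.4% of all genes, and 2 after PMA, beside 31.8%. *SMARCA2*, an ATPase of the SWI/SNF complex, was higher in the cHL lines (1.68), by 2.31 in L1236, 2.26 in L428 and, without a call, 0.47 in KM-H2 (limma, adjusted p = 0.33349). *EP300*, a histone acetyltransferase, was lower (-0.62). After PMA *SKI*, a co-repressor that binds NFI proteins, was higher by 2.49 and *SMARCA2* lower (-1.76), and the other 6 were not called. The call of *EP300* was lost without library 1 of KM-H2, L1236 or L428, or library 0 of L428, Namalwa or Reh (differences from -0.63 to -0.43), and that of *SMARCA2* after PMA without either Reh library or library 0 of PMA-treated Reh (-1.84, -1.69 and -1.37). *CREBBP*, *GTF2B*, *SMARCA4*, *SP1* and *TBP* were called in neither comparison.

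The blood-lineage regulators gave the setting in which the NFI genes stood. Of 14 listed, 11 were tested, and 10 were lower and 1 higher in the cHL lines, with a median difference of -3.45, while 25.8% of all genes were called lower. *LYL1*, *EBF1* and *ERG* were among those lower (-4.51, -4.00 and -3.45), and *MEIS1* was higher (3.42). The filter on low values fixed the direction of 6 of these calls, since *MEIS1* passed it only through the cHL libraries and *LYL1*, *ERG*, *SPI1*, *CBFA2T3* and *CEBPA* only through the other libraries. The count is therefore a description of levels. After PMA 7 of the 11 were lower and 4 were not called, beside 17.2% of all genes called lower. *ERG* (-4.83) and the co-repressor gene *CBFA2T3* (-1.98) were among them, as *NFIX* was, whereas *LYL1* (-0.36, adjusted p = 0.27839) did not pass the limma test. Among those not called, *CEBPA* was listed at 0 in untreated Reh and *MEIS1* did not exceed 0.03437 FPKM there, so neither had room to fall.

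*LYL1* is also the nearest neighbour of *NFIX*. The genes converge, with their ends 0.2 kb apart on chromosome 19, and their levels differed between lines. L1236, with the highest *NFIX*, had *LYL1* listed at 0 in both libraries, Reh had 82.9687 and 78.828 FPKM, and Namalwa, with almost no *NFIX*, had 4.1622 and 7.1801 FPKM. The kit keeps the strand of the RNA, but the sources used here do not state whether the counting used it. Next to *NFIC*, *SMIM24*, 4.8 kb away, was found in Reh (16.5343 and 9.518 FPKM) and PMA-treated Reh (8.0649 and 6.0362 FPKM) and was at most 0.0578 FPKM in the other lines.

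The profile of *NFIX* over the 6 group means was most like those of *ZSCAN12* (Pearson r = 0.9882), *PCBD2* (0.9797), *PIN4* (0.9647), *PKI55* (0.9579) and *KDELC2* (0.9569), among 11646 genes. These are descriptions over 6 points that share a processing run and include Reh both with and without PMA. *KDELC2* had group means of 11.836 FPKM in L1236, 13.963 in Reh, 1.17 in PMA-treated Reh and at most 0.036 FPKM in the other 3 lines, whereas *PIN4* ran only from 9.984 to 13.808 FPKM. The paralogues were less like *NFIX*, with r of 0.474 for *NFIC*, 0.279 for *NFIB* and -0.781 for *NFIA*.

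The promoters of the members, 300 bases around each RefSeq start site in GRCh38.p14, were searched on both strands for the NFI palindrome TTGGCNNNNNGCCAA and for its arm with the next base, TTGGCA. The palindrome was in none of the members' promoters and in 0.03% of 35116 RefSeq promoters. TTGGCA was in 3 of 10 *NFIB* promoters and in none of the 3 of *NFIA*, the 1 of *NFIC* or the 5 of *NFIX*, and in 12.54% of all.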

How the data were processed

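Expression was measured by RNA-seq of ribosome-depleted total RNA with a stranded kit in 12 libraries, 2 for each of 6 groups. The authors deposited 1 table of gene-level FPKM values. The submitters' processing notes name TopHat2 2.0.11, Cuffnorm 2.2.1 and hg19. The annotation and the strand setting of the counting are not given in the sources used here. Column endings 0 and 1 could not be matched to the replicate numbers of the labels, so libraries are replicates of a group only. The members and all gene lists were chosen with earlier results of these data known.

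From the FPKM values, log2(FPKM + 1) was computed for 14679 of 26210 genes with at least 1 FPKM in at least 2 libraries. A model with 1 mean per group was fitted with limma 3.58.1 in R 4.3.3 (variance trend, Benjamini-Hochberg adjustment over all genes tested, called under 0.05), and the script was tested on simulated data. Line means were compared with exact permutation tests (SciPy 1.17.1). The text names the 4 members, fixed lists of LTR-linked, NFI-dependent, NFI-partner and blood-lineage genes, cell type markers, expressed neighbours, antisense genes and the 5 genes most like NFIX by Pearson correlation with a group mean of at least 5 FPKM.

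Depth was estimated from the 10th percentile of value times transcript length over 2112 genes with 1 transcript. One fragment per kilobase was worth 0.0482 to 0.2762 FPKM, and fragment numbers are estimates. Alternatives were a pseudocount of 0.1, no filter, upper-quartile scaling, a replicate block, no variance trend, leaving out each library, only the 4 Reh libraries for PMA, and, chosen after seeing the data, removal of the median deviation in 20 bins of GC content, known for 90.1% of the genes tested. Sequences were read from GRCh37 with GENCODE release 44 and from RefSeq promoters.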

Additional observations from a re-analysis of the deposited data

How the results depend on the processing

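Of 346 tested member values under the alternatives, 319 kept their direction and side of the threshold, 14 lost a call, 6 gained one and 7 changed sign. The sign changes were those of values that were not called. NFIA in cHL against control lines was 0.0829 with a pseudocount of 0.1 (also over line means) and ran from -0.2217 to 0.1305 when single libraries were left out. NFIA in KM-H2 was 0.0742 with that pseudocount and ran from -0.4009 to 0.1027. NFIX in KM-H2, a description, was 0.1716 with that pseudocount. After PMA, TNFRSF11A was -0.0103 with upper-quartile scaling and ran from -0.0729 to 0.1739 without single libraries, NLRP1 ran from -0.4269 to 0.0774, and WNT5A was -0.0366 with the GC adjustment. With a pseudocount of 0.1 NFIC was also called in L1236 (2.07, adjusted p = 0.02747) and L428 (1.78, adjusted p = 0.048155) by limma.

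After PMA 2 members were called with a pseudocount of 0.1 and 3 when only the 4 Reh libraries were fitted, where NFIA (adjusted p = 0.019364) and NFIB (0.040144) were added by limma. Leaving out single libraries gave 1 to 2 members called in cHL, KM-H2, L1236 and L428 against the control lines and in Namalwa against Reh. It gave 2401 to 4988 genes called after PMA (2401 and 2550 without library 0 or 1 of Reh, 2433 without library 0 of PMA-treated Reh) and 2346 to 3933 between Namalwa and Reh (2346 without library 0 of Reh). A group with 1 library left was assumed to vary like the others.

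With the column ending as a replicate block, 8423 genes were called in cHL against control lines and 5115 after PMA, and NFIC in L1236 was called (0.94, adjusted p = 0.041015). The adjusted p of NFIC was then 0.0041276 in cHL against control lines and 0.0024698 in KM-H2. Deviations of libraries with the same ending correlated between 0.301 and 0.681 among the 3 cHL lines and between -0.045 and 0.357 in the other 12 pairs, of which 3 were above 0.1. The cHL libraries with one ending thus deviated together, but most pairs of a cHL with a control line did not, and the labels tie the endings to no shared culture or run, so the fit without the block was kept. Of the 5 genes most like NFIX, 1 was among the first 5 by Spearman correlation over the 12 libraries. Depth limits values of a few fragments: NFIX, NFIC and NFIB in Namalwa, and NFIA and NFIB in PMA-treated Reh.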
